A study of Mus musculus with 16 samples.

Results

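Immunoglobulin variable (V) gene segments are the germline pieces from which the antigen-binding end of an antibody chain is assembled. The 216 segments described here are the rows of the count table that GENCODE M21 classes as immunoglobulin V genes and whose symbols begin with Ighv, Igkv or Iglv, of 45706 gene IDs in all. They comprise 113 Ighv segments of the heavy chain locus on chromosome 12, 100 Igkv segments of the kappa light chain locus on chromosome 6 and 3 Iglv segments of the lambda light chain locus on chromosome 16. A further 2 genes of that class with other symbols, Gm42543 and Gm43218, and 155 V pseudogenes were left out. Gm42543 had 286 to 1200 counts and Gm43218 163 to 603 counts in each Week2 library, and neither had a count in the LSK libraries.

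In each developing B cell, the RAG1 and RAG2 recombinase joins 1 V segment to a joining (J) segment, with a diversity (D) segment between them at the heavy chain locus. The joined exon is transcribed with a constant gene, Ighm first and, after class switching, an Ighg, Ighe or Igha gene. A B cell and its descendants therefore carry the same rearranged V segments, and plasma cells hold far more of that mRNA per cell than other B cells. Bone marrow is where B cells are made in the adult mouse and is also a home of long-lived plasma cells.

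RNA sequencing libraries had been made from mouse bone marrow carrying the label Gata2 or WT. The series concerns a blood system with too little GATA2, a zinc finger transcription factor of blood stem cells, which was stressed by grafting small numbers of sorted LSK cells into irradiated WT mice. LSK cells, which lack lineage markers and carry Sca-1 and Kit, include the blood stem cells, and they gave 3 libraries of Day0_Gata2, 2 of Day0_WT, 2 of Day2_Gata2 and 3 of Day2_WT. CD45.2 marrow cells gave 3 libraries of Week2_Gata2 and 3 of Week2_WT. The labels used here name no allele, strain or age, do not say what the day and week count from, and do not tie replicates to animals. Total counts were 19.6 to 68.3 M in the LSK libraries and 177 to 321 M at Week2. The word genotype below stands for the label Gata2 or WT. What the label means for the level of Gata2 mRNA is not stated. Although the series concerns too little GATA2, Gata2 mRNA was higher in each library labelled Gata2 than in each WT library at Day0 and Day2. The cause was not tested. At Week2 this mRNA overlapped between the groups. It stood at 611, 752 and 677 CPM (counts scaled to the size of the library) in Day0_Gata2 against 446 and 330 in Day0_WT, at 491 and 737 in Day2_Gata2 against 291, 262 and 259 in Day2_WT, and at 27.4, 12.4 and 7.86 in Week2_Gata2 against 11.9, 14.5 and 11.1 in Week2_WT. The extraction protocol in the labels speaks of lineage-negative cells for every sample, while the B cell marker Ms4a1 stood at 168 to 500 CPM at Week2. The stem cell markers Kit and Cd34 were present in each LSK library (Kit 409 to 716 CPM), and the CD45 gene Ptprc stood at 349 to 1030 CPM at Week2. Day0_WT replicate 1 was the shallowest library, with 19.6 M counts.

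Many V segments differ at few positions, and reads from near-identical segments may be shared between them or lost, depending on a counting rule that the labels do not state. Over the V exons, 31 of the 216 segments had 50% or more of their 50-base stretches in another V segment or pseudogene, 44 had none there, and the median identity to the nearest one was 95.3%. Ighv1-62-2 and Ighv1-71 have identical V exons, so reads that lie within the V exon cannot tell them apart. Their counts still differed, at 46 and 0 in Day0_WT replicate 1. The 3 pairs that matter below are printed as 3′ parts of the V exon (GENCODE M21 transcripts, mm10, 5′ to 3′), with capitals at the bases where the members of a pair differ. Iglv1 (chr16:19085017-19085316, minus strand) and Iglv2 (chr16:19260401-19260700, minus strand) held most lambda counts and differ at 8 of 300 bases.
Iglv1: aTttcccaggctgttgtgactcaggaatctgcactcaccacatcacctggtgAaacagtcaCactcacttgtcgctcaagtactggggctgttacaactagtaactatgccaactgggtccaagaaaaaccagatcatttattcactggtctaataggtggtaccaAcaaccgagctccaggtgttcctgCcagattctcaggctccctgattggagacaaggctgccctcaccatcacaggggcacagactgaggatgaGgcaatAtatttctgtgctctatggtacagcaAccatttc
Iglv2: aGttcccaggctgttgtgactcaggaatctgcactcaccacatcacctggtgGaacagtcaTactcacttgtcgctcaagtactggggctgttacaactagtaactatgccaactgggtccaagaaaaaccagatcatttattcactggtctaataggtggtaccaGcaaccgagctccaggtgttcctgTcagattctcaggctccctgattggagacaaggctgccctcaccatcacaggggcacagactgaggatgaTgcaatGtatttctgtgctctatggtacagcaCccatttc
Igkv4-70 (chr6:69267888-69268186, minus strand) was high in 1 Week2 library, and it differs at 8 of 299 bases from Igkv4-59 (chr6:69438222-69438520, minus strand), which was found at Day0. Of their 50-base stretches, 66.4% for Igkv4-70 and 84.3% for Igkv4-59 occur in another segment.
Igkv4-70: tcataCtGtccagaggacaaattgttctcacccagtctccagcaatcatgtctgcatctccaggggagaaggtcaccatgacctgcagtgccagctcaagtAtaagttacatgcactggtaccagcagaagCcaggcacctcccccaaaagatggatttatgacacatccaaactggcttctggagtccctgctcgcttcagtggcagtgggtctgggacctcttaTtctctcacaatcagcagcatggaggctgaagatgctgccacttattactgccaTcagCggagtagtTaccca
Igkv4-59: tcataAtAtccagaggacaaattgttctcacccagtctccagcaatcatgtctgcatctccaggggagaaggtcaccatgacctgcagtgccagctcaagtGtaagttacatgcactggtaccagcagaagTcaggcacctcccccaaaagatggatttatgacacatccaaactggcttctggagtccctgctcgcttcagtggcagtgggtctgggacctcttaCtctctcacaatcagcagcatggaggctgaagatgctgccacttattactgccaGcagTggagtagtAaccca
Igkv1-110 (chr6:68270968-68271267, plus strand) and Igkv1-117 (chr6:68121528-68121827, plus strand) led the kappa counts of separate Day0 libraries and differ at 10 of 300 bases.
Igkv1-110: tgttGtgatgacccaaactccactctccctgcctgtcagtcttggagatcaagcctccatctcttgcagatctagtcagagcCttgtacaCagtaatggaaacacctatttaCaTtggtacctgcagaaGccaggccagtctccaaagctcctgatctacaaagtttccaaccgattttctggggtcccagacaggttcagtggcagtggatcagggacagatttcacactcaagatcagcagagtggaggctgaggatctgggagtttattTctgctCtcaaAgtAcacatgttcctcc
Igkv1-117: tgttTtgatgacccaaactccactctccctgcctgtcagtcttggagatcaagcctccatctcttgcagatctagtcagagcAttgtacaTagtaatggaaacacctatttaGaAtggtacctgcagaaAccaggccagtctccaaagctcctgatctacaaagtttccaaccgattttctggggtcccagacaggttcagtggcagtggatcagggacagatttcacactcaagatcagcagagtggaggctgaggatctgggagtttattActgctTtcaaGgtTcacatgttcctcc

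The last 60 bases of a V exon run into the junction with D or J and code for the second conserved cysteine of the variable domain. They are shown for Ighv1-81, which led the Ighv counts of Day0_Gata2 replicate 3 and Day0_WT replicate 2. Ighv1-4 and Igkv3-10 led the Ighv and Igkv counts of Day0_WT replicate 1. Ighv11-2 and Igkv14-126 are a heavy and light pair that were both high in 1 Week2 library. Ighv1-23 is the segment with counts in all LSK libraries. Capitals mark a match to TATTNCTGT on the coding strand, in which TGT codes for that cysteine. This motif was found in the last 60 bases of 137 of the 216 V exons (63.4%), searched on the coding strand, and no other motif was searched.
Ighv1-81: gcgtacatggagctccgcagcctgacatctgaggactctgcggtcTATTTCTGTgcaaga
Ighv1-4: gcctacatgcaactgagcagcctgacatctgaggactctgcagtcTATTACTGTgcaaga
Igkv3-10: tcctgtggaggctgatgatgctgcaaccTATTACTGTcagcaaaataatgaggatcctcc
Ighv11-2: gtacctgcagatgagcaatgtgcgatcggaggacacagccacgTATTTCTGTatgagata
Igkv14-126: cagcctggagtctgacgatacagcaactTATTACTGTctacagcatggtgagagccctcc
Ighv1-23: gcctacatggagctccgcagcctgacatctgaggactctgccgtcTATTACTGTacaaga
They lie on mm10 at chr12:115920279-115920338, chr12:114487136-114487195, chr6:70573171-70573230, chr12:114048241-114048300, chr6:67896583-67896642 and chr12:114764450-114764509. The Ighv segments are on the minus strand and the Igkv segments shown are on the plus strand.

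V segment mRNA was moderate at Day0, almost absent at Day2 and highest at Week2. In CPM of the library total, without further scaling, the 216 segments summed to 291, 383 and 419 in Day0_Gata2 and to 287 and 595 in Day0_WT. At Day2 they summed to 2.05 and 1.63 in Day2_Gata2 and to 2.21, 2.05 and 3.66 in Day2_WT. At Week2 they summed to 975, 2692 and 1870 in Week2_Gata2 and to 1525, 957 and 1510 in Week2_WT. The 3 times therefore did not overlap, but Week2 comes from another sorted fraction than Day0 and Day2, so time and cell fraction cannot be told apart there. In bulk RNA, fewer B lineage cells and less mRNA per cell cannot be told apart either.

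**Figure D1:**
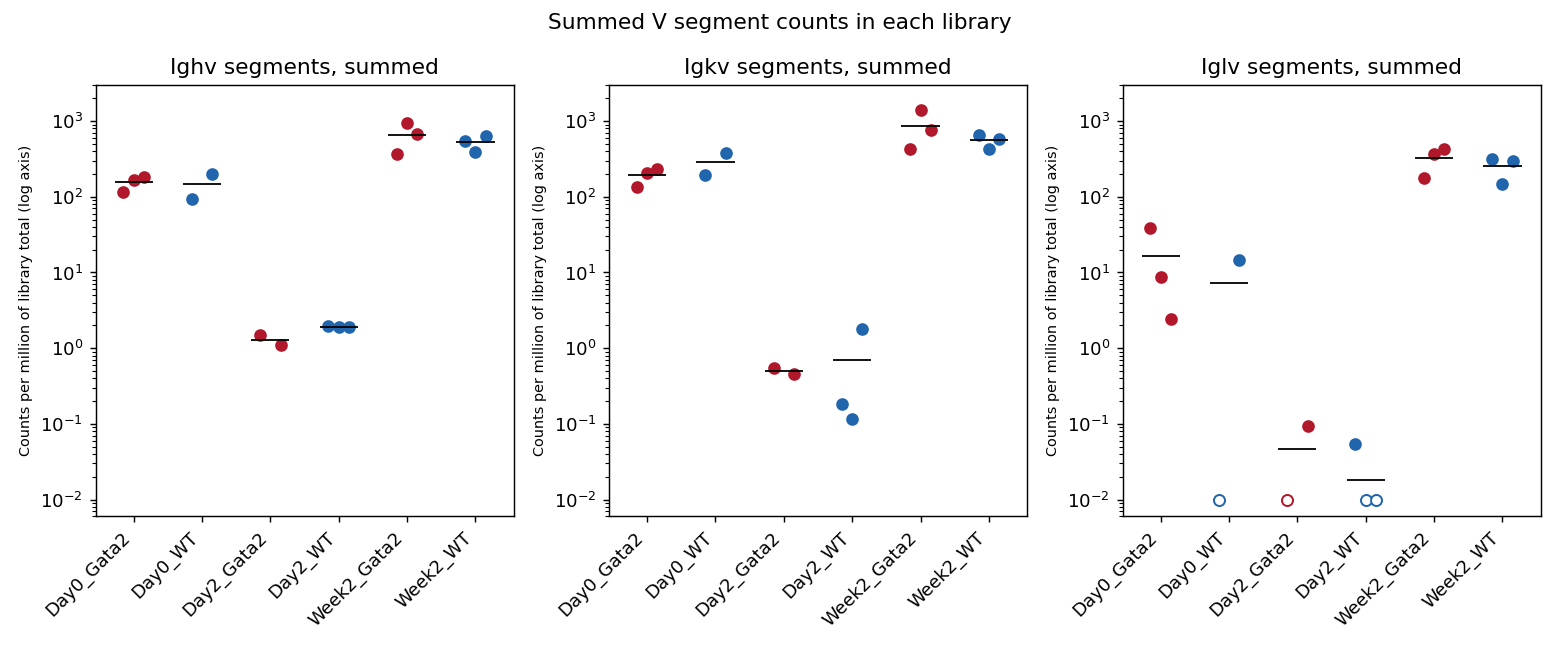
Summed level of the Ighv, Igkv and Iglv segments in CPM of the library total (log axis) in each library, by group. Points are libraries, bars are group means, and open points at the bottom are libraries with 0 counts. For Ighv and Igkv the Day2 libraries lie below all Day0 and Week2 libraries, and for Iglv the exception is Day0_WT replicate 1, which is at 0.

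The number of segments seen followed the same order. Of the 216 segments, 130, 134 and 139 had a count in Day0_Gata2 and 38 and 115 in Day0_WT. At Day2 the numbers were 13 and 25 in Day2_Gata2 and 16, 13 and 13 in Day2_WT. At Week2 they were 214, 215 and 216 in Week2_Gata2 and 214, 216 and 216 in Week2_WT, and 212 segments had a count in each of the 6 libraries. Depth differs between the times, so the expectation at the depth of the smallest library, 19.6 M, was also computed. It was 93.7 to 105 segments in Day0_Gata2, 38 and 99.4 in Day0_WT, 11.2 and 15.3 in Day2_Gata2, 9.58 to 13.2 in Day2_WT, 207 to 213 in Week2_Gata2 and 210 to 213 in Week2_WT.

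The counts were also far more concentrated at Day0 than at Week2. The Day2 shares were high too, but they rest on 87 to 196 V counts per library. Low counts can raise such a share, and none was computed at equal counts. The 5 largest segments of a library held 39.2%, 38.2% and 48.0% of its V counts in Day0_Gata2 and 79.0% and 52.1% in Day0_WT. They held 71.7% and 58.6% in Day2_Gata2 and 66.1%, 75.5% and 90.3% in Day2_WT. At Week2 they held 22.5%, 22.5% and 26.9% in Week2_Gata2 and 24.7%, 19.4% and 24.04% in Week2_WT. The effective number of segments, the inverse Simpson index, says how many equally used segments would give the same concentration. For Ighv it was 13.6, 9.53 and 5.51 in Day0_Gata2, 4.28 and 5.02 in Day0_WT, 53.0, 39.6 and 57.0 in Week2_Gata2 and 55.6, 57.4 and 55.4 in Week2_WT. For Igkv it was 9.37, 10.8 and 8.53 in Day0_Gata2, 1.47 and 7.90 in Day0_WT, 44.6, 34.5 and 51.0 in Week2_Gata2 and 48.6, 52.8 and 51.8 in Week2_WT. These are indices over the members and were not tested.

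**Figure D2:**
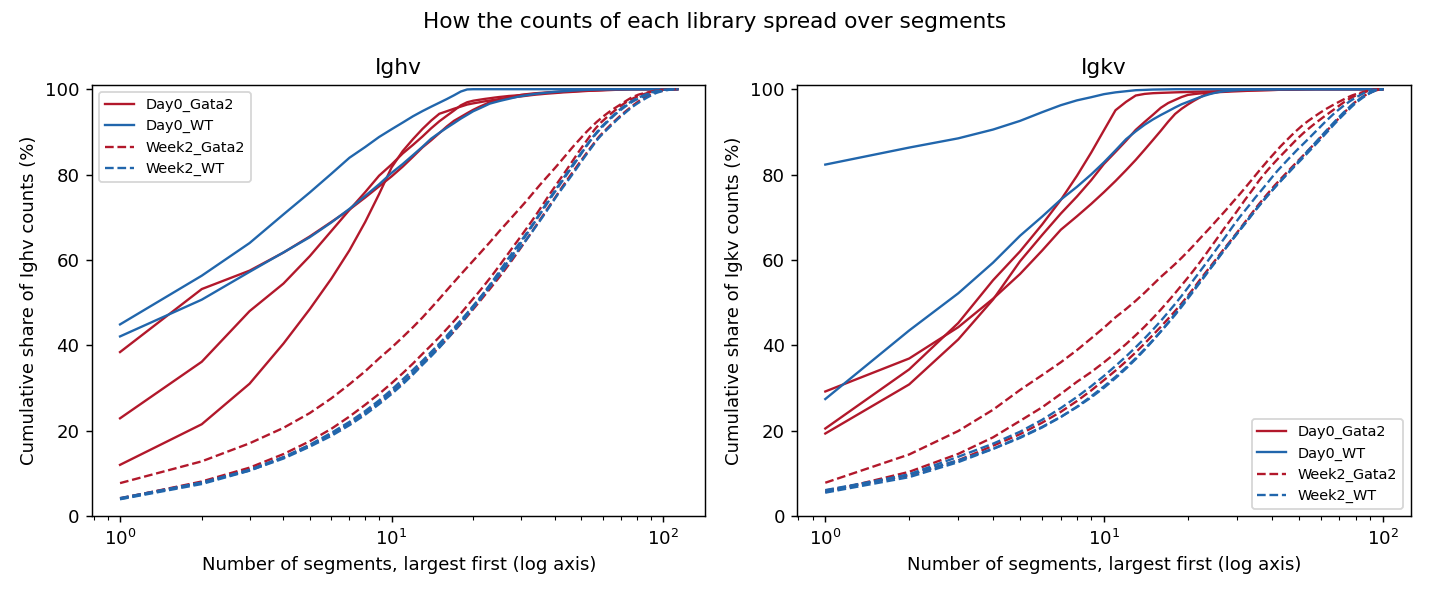
Cumulative share of a library's Ighv (left) and Igkv (right) counts against the number of segments, largest first (log axis), for the Day0 (solid) and Week2 (dashed) libraries, with Gata2 in red and WT in blue. The Day0 curves rise above the Week2 curves, and Day0_WT replicate 1 starts at 82.3% on 1 Igkv segment. The dashed red curve above the other Week2 curves is Week2_Gata2 replicate 2.

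At Week2 the heavy and kappa loci were used along their whole length. Apart from Week2_Gata2 replicate 2, any 2 libraries shared 87.6% to 95.9% of their Ighv profile and 83.8% to 95.5% of their Igkv profile. The largest mean Ighv share over the 6 libraries was that of Ighv9-3 (chr12:114140692-114141122, minus strand), with 4.14%, 3.44% and 4.22% of Ighv counts in Week2_Gata2 and 3.98%, 4.05% and 4.25% in Week2_WT. It led in 5 libraries, while Ighv1-9 led in Week2_Gata2 replicate 2, where Ighv8-8 and Ighv1-50 were also above it. Ighv1-64 followed in the mean at 3.18%, 3.62% and 3.70% in Week2_Gata2 and 3.57%, 3.80% and 3.65% in Week2_WT. Ighv1-9, Ighv6-3, Ighv8-8, Ighv3-6, Ighv5-17 and Ighv1-55 had mean shares of 2.67% to 3.15% over the 6 libraries. Divided by exon length, Ighv9-3 remained first and Ighv1-9 passed Ighv1-64.

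The kappa segment with the largest mean share was Igkv1-135 (chr6:67609713-67610508, plus strand), at 4.77%, 2.86% and 6.03% of Igkv counts in Week2_Gata2 and 5.68%, 5.52% and 6.12% in Week2_WT. It led in 4 libraries, while Igkv6-15 led in Week2_Gata2 replicate 1 and Igkv4-70 in replicate 2. Igkv6-15 stood at 5.64%, 4.99% and 3.50% in Week2_Gata2 and 4.10%, 3.63% and 3.35% in Week2_WT. Igkv1-117, Igkv3-4, Igkv3-2, Igkv6-23, Igkv17-127 and Igkv1-110 had mean shares of 2.56% to 3.59%. The first 7 Igkv segments kept their order when shares were divided by exon length.

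Of the lambda segments, Iglv1 took 68.1%, 50.1% and 59.7% of Iglv counts in Week2_Gata2 and 61.4%, 61.0% and 61.1% in Week2_WT. Iglv2 took 21.7%, 39.2% and 27.4% in Week2_Gata2 and 26.4%, 25.04% and 26.3% in Week2_WT, and Iglv3 took the remaining 10.2% to 14.0%. Lambda counts as a whole were 17.9%, 13.7% and 22.9% of V counts in Week2_Gata2 and 20.4%, 15.3% and 19.9% in Week2_WT. Iglv1 was the largest single V segment in each Week2 library, at 6.84% to 13.7% of V counts (the widest 95% Clopper-Pearson interval, that of Week2_Gata2 replicate 1, ran from 12.1% to 12.3%, counting error only).

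The ends of the loci were in use too. Ighv5-2, the Ighv segment nearest to the J segments, had 0.999%, 0.808% and 1.36% of Ighv counts in Week2_Gata2 and 1.04%, 1.13% and 1.24% in Week2_WT, and Ighv1-85 at the far end, 2570 kb from J, had 0.68% to 0.98% over the 6 libraries. At the kappa locus Igkv3-1, 18.4 kb from J, had 0.28% to 0.54% of Igkv counts, and Igkv2-137, 3166 kb away, had 0.01% to 0.05%. The 37 Ighv segments nearest to J, 32.7% of the segments, held 29.6% to 31.8% of Ighv counts, the next 38 held 31.0% to 32.9% and the farthest 38 held 36.9% to 38.5%. The Ighv1 family, which makes up 46.9% of the Ighv segments, held 49.1% to 51.2% of the counts in each Week2 library.

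At Week2 the CD45.2 marrow libraries labelled Gata2 were compared with those labelled WT, and no V segment passed the test. The summed level, in CPM after TMM scaling within the Week2 libraries, was 1339, 3078 and 1306 in Week2_Gata2 and 1926, 868 and 1203 in Week2_WT. The means were 1907 ± 1014 and 1333 ± 541 (SD, n = 3 each), a log2 ratio of 0.52, and the groups overlapped. The ratio rested on Week2_Gata2 replicate 2: without it the log2 ratio was -0.01. Of the 216 segments 213 passed the low count filter, and edgeR's quasi-likelihood test called 0 of them at an adjusted p under 0.05, beside 0.0% of the 36485 genes tested. At an unadjusted p under 0.05 there were 2 segments, both higher, beside 0.238% of all genes. DESeq2 called 0 of the 213, beside 0.00274% of all genes.

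The pair with the lowest p were segments that were high in 1 library each. Igkv4-70 had 2.43, 125 and 2.23 CPM in Week2_Gata2 against 2.999, 1.56 and 1.96 CPM in Week2_WT (log2 fold change 4.31, SE 1.40, edgeR adjusted p = 1.0). Only Week2_Gata2 replicate 2 stood above the WT libraries by more than their spread. Igkv3-9 had 8.96, 1.43 and 0.44 CPM in Week2_Gata2 against 0.63, 0.28 and 0.39 CPM in Week2_WT (log2 fold change 3.05, SE 1.02, edgeR adjusted p = 1.0), and it was called only when Week2_Gata2 replicate 3 was left out (log2 fold change 3.59). Week2_Gata2 replicate 1 was the highest library for it, at 1.53% of Igkv counts. The next were Igkv14-126, Igkv4-63 and Ighv11-2, with log2 fold changes of 2.20, 1.37 and 2.39 and an edgeR adjusted p of 1.0 each. The groups did not overlap for 1 segment that was higher in Week2_Gata2, Igkv4-63 (0.469% of the segments, beside 0.674% of all genes), and for 1 that was lower, Igkv3-3 (0.469%, beside 0.737%). Igkv3-3 was chosen after its values were seen.

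Week2_Gata2 replicate 2 differed from the other 5 libraries in which segments it used most. There, 13 segments had a locus share at least 2-fold above that in the next library, against 0 or 1 in each of the others. They were named after their values were seen: Igkv4-70, Igkv1-99, Igkv13-85, Igkv14-126, Igkv3-4, Igkv3-2, Igkv5-39, Ighv1-37, Ighv11-2, Ighv1-9, Ighv1-50, Ighv8-5 and Ighv7-1. Together they held 19.0% of its Ighv counts and 27.8% of its Igkv counts. Igkv4-70 was 7.85% of Igkv counts there, from 35013 counts, against 0.36% to 0.42% in the other libraries. The near copy Igkv4-59 was 3.47% there and 1.45% to 1.90% in the others, and how far shared reads join these 2 values was not tested. Ighv1-9 was 7.76% of Ighv counts against 1.93% to 2.496% in the others, and Ighv1-50 4.22% against 1.06% to 1.38%. The effective numbers of Ighv and Igkv segments were the lowest of the 6 Week2 libraries there, at 39.6 and 34.5.

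**Figure D3:**
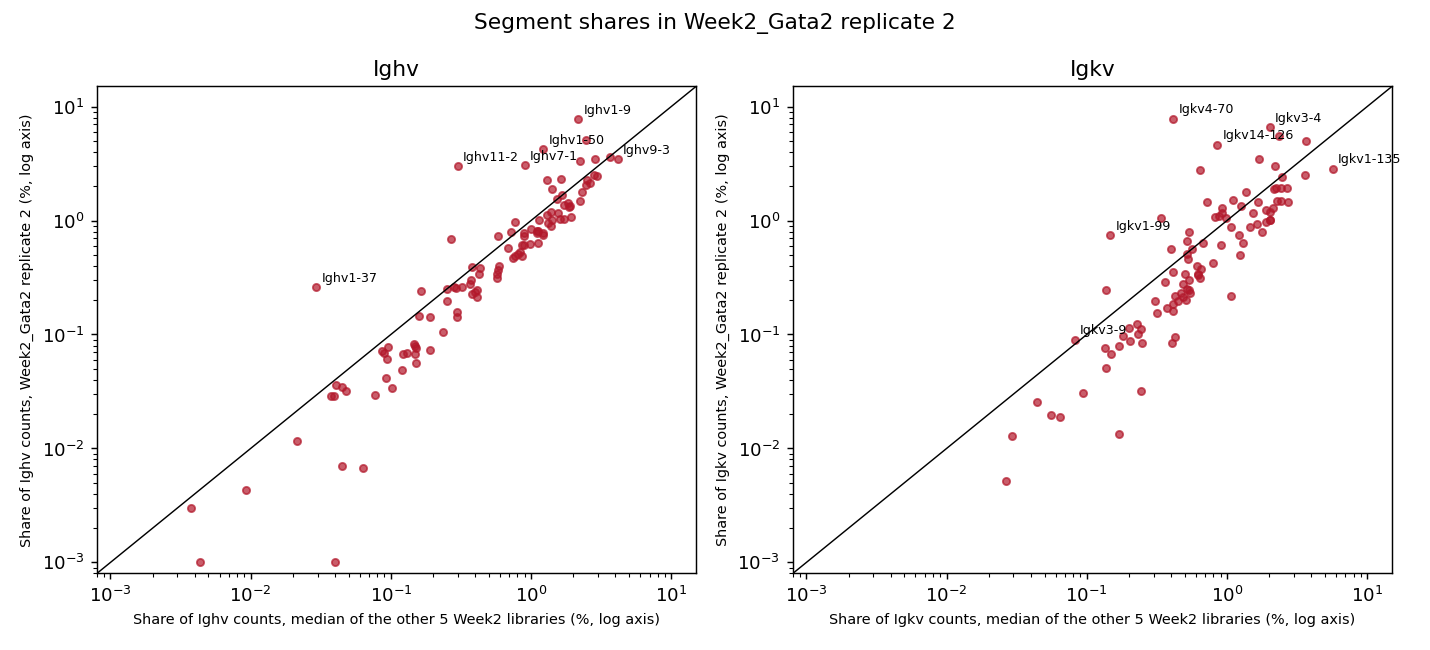
Share of each segment among Ighv (left) or Igkv (right) counts in Week2_Gata2 replicate 2 against its median share in the other 5 Week2 libraries (both in %, log axes; segments at 0 on either axis are not drawn). The line marks equal shares. Igkv4-70 lies farthest above it among the Igkv segments, at 7.85% in that library.

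In mice Ighv11-2 and Igkv14-126 are known together from antibodies to phosphatidylcholine made by B-1a cells, a B cell population of body cavities. Ighv11-2 had 0.91%, 3.01% and 0.30% of Ighv counts in Week2_Gata2 and 0.76%, 0.24% and 0.25% in Week2_WT. Igkv14-126 had 1.70%, 4.63% and 0.85% of Igkv counts in Week2_Gata2 and 1.59%, 0.72% and 0.67% in Week2_WT. Replicates 1 and 2 of Week2_Gata2 and replicate 1 of Week2_WT were thus the highest for both segments. This split was noticed after the values were seen. Any 3 Week2 libraries can be the highest for some segments, so a count of such segments does not by itself set the split apart. In all, 10 of the 213 Ighv and Igkv segments had these 3 highest libraries, including the segments that set the split. Ighv12-3 and Igkv4-91, also known from antibodies to phosphatidylcholine, did not. Ighv12-3 had 0.28%, 0.23% and 0.38% of Ighv counts in Week2_Gata2 and 0.34%, 0.42% and 0.38% in Week2_WT, its lowest being the same 3 libraries. Igkv4-91 had 0.78%, 0.20% and 0.51% of Igkv counts in Week2_Gata2 and 0.53%, 0.47% and 0.48% in Week2_WT. Ighv7-1, known from mouse antibodies to phosphorylcholine, had its 3 highest shares in the same libraries (1.51%, 3.05% and 0.82% in Week2_Gata2, 1.22%, 0.82% and 0.90% in Week2_WT). Igha, the constant gene of IgA, and Jchain, which joins IgA and IgM units in plasma cells, also split this way. Igha stood at 496, 400 and 8.49 CPM in Week2_Gata2 and 256, 0.47 and 0.41 CPM in Week2_WT, and Jchain at 89.7, 400 and 3.41 CPM in Week2_Gata2 and 65.3, 0.66 and 0.96 CPM in Week2_WT. Genes of other lists had the same 3 highest libraries: 5 of 12 constant genes, 2 of 8 plasma cell genes, 6 of 7 T cell genes, 1 of 6 LSK genes (Ly6a, which encodes Sca-1) and Ptprc. So had 1 of 8 pre-B and recombination genes, 0 of 10 B cell genes, 0 of 3 erythroid genes and 0 of 4 neutrophil genes. The share over all genes was not computed, so these counts cannot be set against it. The summed T cell level was 68.4, 125 and 33.2 CPM in Week2_Gata2 and 87.9, 45.3 and 42.6 CPM in Week2_WT, and Ly6a stood at 71.9, 56.0 and 7.66 CPM in Week2_Gata2 and 31.8, 7.29 and 9.07 CPM in Week2_WT. The part of other cells, plasma cells included, in these shares was not tested. Ighv11-2 has 48.8% of its 50-base stretches in other segments, the nearest being Ighv11-1, and Igkv14-126 has none.

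At Day0 a few segments dominated each LSK library, in both genotypes, and the leaders differed between most libraries. Iglv1 led Day0_Gata2 replicate 1 with 1866 counts, 13.2% of its V counts, followed by Igkv4-57 with 1364. Igkv6-17 and Ighv1-80 led replicate 2, with 1939 and 1827 counts, and Ighv1-81 and Igkv1-110 led replicate 3, with 4860 and 4612. In Day0_WT replicate 1, Igkv3-10 alone had 3121 counts, 55.5% of V counts (95% Clopper-Pearson interval 54.2% to 56.8%, counting error only), and Ighv1-4 had 823. In Day0_WT replicate 2, Igkv1-117 led with 4987 counts, before Ighv1-81 with 4057 and Igkv1-110 with 2918, so it shared 2 of its leaders with Day0_Gata2 replicate 3.

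The leaders of Day0_WT replicate 1 were at or near 0 in the other Day0 libraries. Igkv3-10 had 1, 0 and 5 counts in Day0_Gata2 and 3121 and 0 in Day0_WT, and Ighv1-4 had 0, 1 and 0 in Day0_Gata2 and 823 and 0 in Day0_WT. Iglv1 had 1866, 410 and 133 counts in Day0_Gata2 and 0 and 526 in Day0_WT. A count of 0 in the shallow Day0_WT replicate 1 allows up to 0.153 CPM (3 counts of its total). Ighv1-81 had 531, 944 and 4860 counts in Day0_Gata2 and 140 and 4057 in Day0_WT, so it was found in each library at differing levels. Igkv1-110 had 449, 1054 and 4612 counts in Day0_Gata2 and 0 and 2918 in Day0_WT. In all, 15 segments had a count in each Day0 library and 17 had none in any of them.

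**Figure D4:**
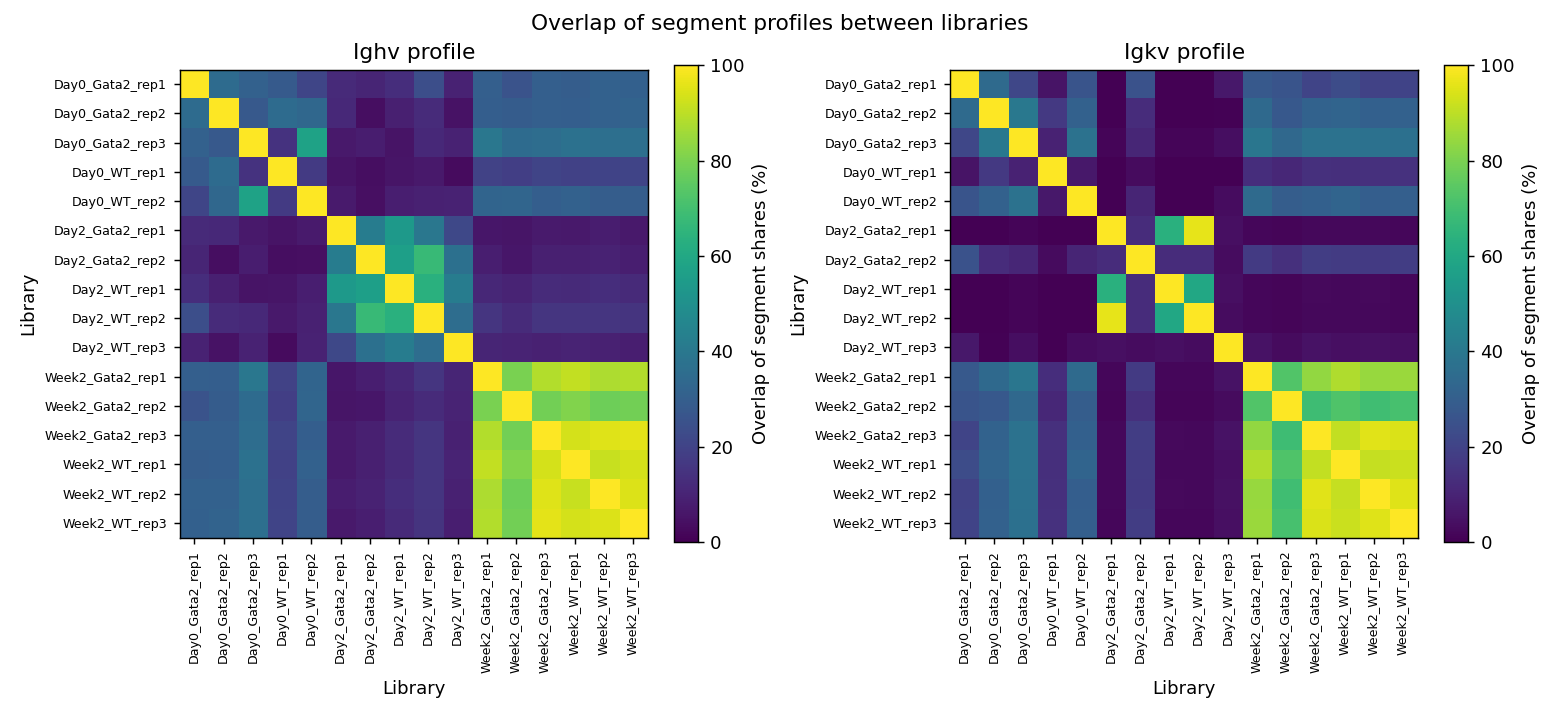
Overlap of Ighv (left) and Igkv (right) profiles between the libraries: the sum over segments of the smaller of their 2 shares, in %, where 100 means equal profiles. The Week2 block lies between 77.8% and 95.9% for Ighv and between 68.9% and 95.5% for Igkv, with its lowest values in the row of Week2_Gata2 replicate 2.

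The overlap of profiles between libraries put numbers on this. Between Week2 libraries the shared part was 77.8% to 95.9% of Ighv counts over 15 pairs, and between Day0 libraries 14.6% to 57.5% over 10 pairs. For Igkv it was 68.9% to 95.5% at Week2 and 5.29% to 39.9% at Day0. The highest Day0 value for Ighv, 57.5%, was between Day0_Gata2 replicate 3 and Day0_WT replicate 2, which both led with Ighv1-81. Within Day0_Gata2 the Ighv overlap was 27.9% to 35.1%, and within Day0_WT 17.0%, and between the 2 labels 14.6% to 57.5%, so the ranges overlapped. The pairs share libraries and the Day0 libraries are shallower, and these values were not tested.

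The Day0 comparison of libraries labelled Gata2 with WT called no V segment. The summed level was 351 ± 61.4 CPM (SD, n = 3) in Day0_Gata2 and 415 ± 203 (n = 2) in Day0_WT after TMM scaling, a log2 ratio of -0.24, with the 3 Day0_Gata2 values lying between the 2 WT values. It was 0.37 without Day0_WT replicate 2 and -0.67 without replicate 1, the shallow library. Of the 216 segments only 64 passed the filter in the LSK libraries, 152 were not tested, and edgeR's quasi-likelihood test called 0, beside 0.0% of 19162 genes. At an unadjusted p under 0.05 there were 5, all higher in Day0_Gata2, beside 13.5% of all genes. DESeq2 called 0 of the 64, beside 1.99% of all genes. Without Day0_WT replicate 2 the count was 14, with 7 higher and 7 lower, beside 39.9% of all genes. That fit sets Day0_Gata2 against 1 library, the shallowest, takes its spread from the other groups and assumes that the lone library varies like them. Groups did not overlap for 5 of the 64 segments higher in Day0_Gata2 (7.81%, beside 18.3% of all genes) and for 1 lower (1.56%, beside 14.2%).

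At Day2 few V counts were left, and 4 segments had a count in each library. The libraries had 106 and 87 V counts in Day2_Gata2 and 121, 106 and 196 in Day2_WT, and 170 of the 216 segments had none in any of the 5. Segments with a count in each Day2 library were Ighv1-23, Ighv1-69, Ighv1-77 and Igkv14-111, which together held 259 of the 616 V counts. Their part was 56.6% and 43.7% in Day2_Gata2 and 47.9%, 67.9% and 15.8% in Day2_WT. Ighv1-23 had 10 and 24 counts in Day2_Gata2 and 29, 44 and 23 in Day2_WT. Ighv1-77 had 20 and 10 in Day2_Gata2 and 17, 16 and 4 in Day2_WT, and Igkv14-111 had 27 and 3 in Day2_Gata2 and 6, 6 and 3 in Day2_WT. Ighv1-23 was also the only segment with a count in each of the 10 LSK libraries, at 1.62 to 2.22 CPM in Day0_Gata2 and 0.92 and 1.10 CPM in Day0_WT.

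One Day2 library had a heavy and a light segment of its own. Day2_WT replicate 3 had 91 counts of Igkv10-96 and 48 of Ighv2-3, against 0 for both in the other Day2 libraries, and together they were most of its 196 V counts. Igkc, the kappa constant gene, was also highest there among Day2 libraries, at 3.89 CPM, against 0.020 and 1.006 in Day2_Gata2 and 0 and 0.20 in the other Day2_WT libraries. Beside the constant genes, V counts were low in all 5 Day2 libraries: all V counts came to 1.68% and 1.43% of the constant gene counts in Day2_Gata2 and 3.03%, 2.03% and 3.11% in Day2_WT. At Day0 this share was 21.2%, 24% and 22.8% in Day0_Gata2 and 19.5% and 24.4% in Day0_WT, and at Week2 it was 16.6% to 20.9%. Per J count there were 0.495 and 0.956 V counts in Day2_Gata2 and 1.11, 0.688 and 1.25 in Day2_WT, against 11.9 or more in each Day0 and Week2 library.

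Between libraries labelled Gata2 and WT at Day2, the summed level was 1.90 ± 0.27 CPM (SD, n = 2) in Day2_Gata2 and 2.79 ± 0.98 (n = 3) in Day2_WT, a log2 ratio of -0.55. The values were 2.09 and 1.72 CPM in Day2_Gata2 and 2.30, 2.15 and 3.91 CPM in Day2_WT, so these groups did not overlap on this scale, while the unscaled values above did. EdgeR's quasi-likelihood test called 0 of the 64 segments tested, beside 0.0% of 19162 genes, with 0 at an unadjusted p under 0.05 beside 5.58% of all genes. DESeq2 called 1 of the 64, beside 0.746% of all genes. It was Igkv10-96, whose counts came from Day2_WT replicate 3 alone. Groups did not overlap for 0 segments higher in Day2_Gata2 (beside 9.96% of all genes) and for 2 lower (3.12%, beside 11.1%).

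From Day0 to Day2, V segments were lower in both genotypes. The Day0 and Day2 libraries carry separate ranges of library numbers, and which library kit each had is not stated. Time and a difference in library preparation therefore cannot be told apart. The filter kept a segment mainly through its Day0 counts: of the 64 tested, 38 had no count in any Day2 library and 6 reached 10 counts in one, so the counts of calls describe these segments and are no separate evidence. In Day2_WT against Day0_WT, edgeR's quasi-likelihood test called 19 of 64 lower and 0 higher, beside 29.9% of 19162 genes called in either direction and 17.9% called lower. In Day2_Gata2 against Day0_Gata2 it called 7 lower and 0 higher, beside 9.3% in either direction and 4.82% lower. Without a Day2_WT library the first count was 5 of 64, beside 16.7% to 23.2% of all genes. The second was then 4 of 64, beside 6.91% to 8.21%. Without Day0_Gata2 replicates 1, 2 and 3 the first was 12 of 59, 11 of 53 and 12 of 53 (beside 21.5% to 22.2%). The second was then 8 of 59, 4 of 53 and 7 of 53 (beside 3.7% to 4.55%). Fits without a Day0_WT or Day2_Gata2 library left 1 library in a group and tested 100 to 119 segments. Their counts ranged more widely and are not given.

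The segments called in most of the 14 alternatives were Igkv4-59, Igkv6-23, Ighv1-81, Ighv1-82 and, in WT, Ighv1-76. In 4 of these alternatives a group was left with 1 library, so the spread came from the other groups. Igkv4-59 had 0, 0 and 0 CPM in Day2_WT against 3.72 and 4.43 in Day0_WT, at least 68.8-fold lower against a floor of 3 counts per library (edgeR adjusted p = 0.000963). In Day2_Gata2 it had 0 and 0.04 CPM against 6.21, 18.6 and 12.2 in Day0_Gata2 (edgeR adjusted p = 0.00301). It was called in all 14 alternatives of both comparisons, having passed the filter through its Day0 counts. Since 84.3% of its 50-base stretches occur in another segment, its counts are uncertain. Igkv6-23 had no count in any Day2 library, so it too passed the filter through its Day0 counts. It was at least 241-fold lower than its mean of 14.3 ± 15.98 CPM in Day0_WT (n = 2, edgeR adjusted p = 0.00292), a bound of 50.6-fold without Day0_WT replicate 2 and 432-fold without replicate 1. It was at least 140-fold lower than its mean of 8.31 ± 3.63 CPM in Day0_Gata2 (n = 3, edgeR adjusted p = 0.0131), where it was called in 12 of 14 alternatives.

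Ighv1-81 had 0, 1 and 1 counts in Day2_WT against 140 and 4057 in Day0_WT (edgeR adjusted p = 0.00204), and 0 and 0 in Day2_Gata2 against 531, 944 and 4860 in Day0_Gata2 (edgeR adjusted p = 0.00831), where it was called in 11 of 14 alternatives. Ighv1-82 had no count at Day2, against 5.95 and 1.98 CPM in Day0_WT and 10.7, 6.11 and 1.17 CPM in Day0_Gata2. It was at least 66.9-fold lower in Day2_WT (edgeR adjusted p = 0.00596), a bound of 33.4-fold without Day0_WT replicate 1 and 100.4-fold without replicate 2. It was at least 101.3-fold lower in Day2_Gata2 than in Day0_Gata2 (edgeR adjusted p = 0.0183, called in 11 of 14 alternatives), a bound of 61.5-fold without Day0_Gata2 replicate 1. Ighv1-76 had 0, 0 and 0 CPM in Day2_WT against 2.08 and 6.72 in Day0_WT, at least 74.3-fold lower (edgeR adjusted p = 0.0142, called in 13 of 14 alternatives), a bound of 35.1-fold without Day0_WT replicate 2 and 113-fold without replicate 1. These bounds with 1 library left out were chosen after seeing the data. Ighv1-81, Ighv1-82 and Ighv1-76 passed the filter through their Day0 counts. Their p-values and their calls in the alternatives are thus no separate evidence of a fall. Ighv1-23 fell least among the segments called in libraries labelled Gata2: it had 0.20 and 0.47 CPM in Day2_Gata2 against 2.22, 2.09 and 1.62 in Day0_Gata2 (log2 fold change -2.55, SE 0.65, edgeR adjusted p = 0.0392), and it was called in 4 of 14 alternatives.

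Other calls rested on 1 Day0 library. Igkv1-117, Igkv1-110, Iglv1, Iglv2, Ighv1-55, Ighv1-72 and Igkv5-43 had 0 CPM in Day2_WT and in Day0_WT replicate 1, so without Day0_WT replicate 2 all their libraries were at 0. Ighv6-3 and Ighv1-74 turned round without that library, to log2 fold changes of 4.68 and 3.07 in Day2_WT against Day0_WT. Ighv1-72 also has all of its 50-base stretches in other segments, so its counts are uncertain.

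The genes that accompany V segments moved with them over time. The constant genes, from the lists used here, numbered 12. In Day2_WT against Day0_WT 10 of the 10 tested were lower by edgeR, beside 17.9% of all genes. In Day2_Gata2 against Day0_Gata2 4 of 10 were lower, beside 4.82%. Ighm, Ighd and Igkc aside, each constant gene had a mean of 0.27 CPM or less in Day2_WT. Those tested passed the filter mainly through their Day0 counts, so their calls are no separate evidence of a fall. The same limit holds for genes of the lists below that were at or near 0 at Day2. Igha stood at 0.81 and 0 CPM in Day2_Gata2 against 652, 806 and 925 in Day0_Gata2, and at 0 in the 3 Day2_WT libraries against 708 and 1007 in Day0_WT. Igkc, Ighm and Ighg2b were lower in both genotypes. Ighm moved less than Igha: its log2 fold change was -1.57 (SE 0.30, edgeR adjusted p = 0.00597) in Day2_WT against Day0_WT and -1.27 (SE 0.32, edgeR adjusted p = 0.0364) in Day2_Gata2 against Day0_Gata2.

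The make-up of the heavy chain constant counts therefore differed between the times. Igha held 68.9%, 76.1% and 72.8% of them in Day0_Gata2 and 77.8% and 68.3% in Day0_WT. At Day2 Ighm held 98.1% and 98.9% in Day2_Gata2 and 98.2% to 99.0% in Day2_WT. At Week2 Ighm held 87.9%, 92.3% and 98.4% in Week2_Gata2 and 94.8%, 98.6% and 98.7% in Week2_WT, and Igha held 9.03%, 3.93% and 0.16% in Week2_Gata2 and 3.43%, 0.01% and 0.01% in Week2_WT. The switched genes Ighg1 and Ighg3 were highest in Week2_Gata2 replicate 2, at 13.8 and 54.6 CPM, against at most 0.52 and 7.45 CPM in the other Week2 libraries.

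**Figure D5:**
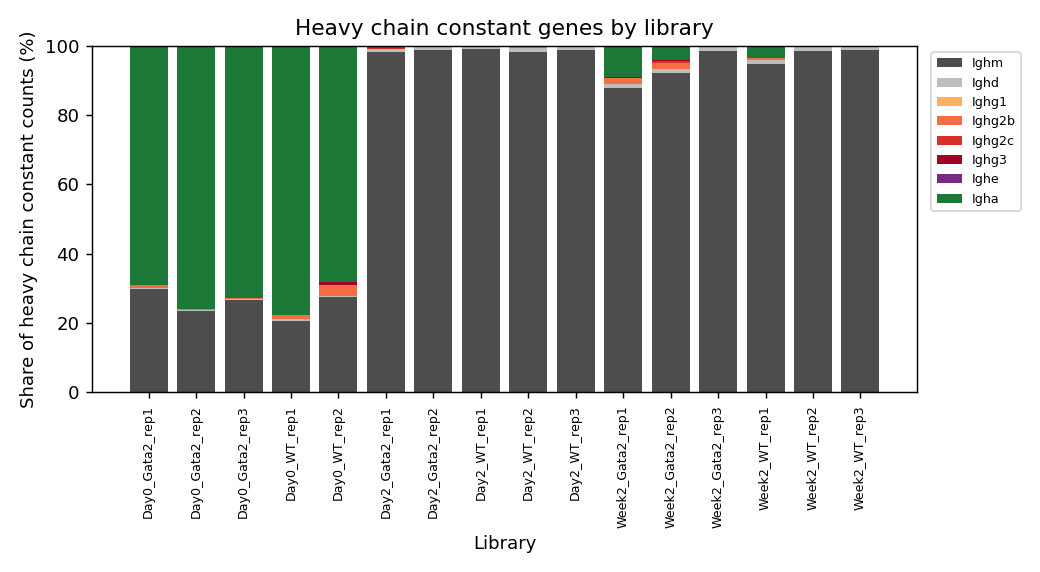
Share of each heavy chain constant gene among the counts of these genes (%), stacked, in each library. Igha (green) holds 68.3% to 77.8% of the Day0 bars, and Ighm (dark grey) holds 87.9% or more of each Day2 and Week2 bar.

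Iglc1, which is usually joined to Iglv1 in mice, stood at 54.6, 13.1 and 1.65 CPM in Day0_Gata2 and 0 and 14.8 CPM in Day0_WT. Summed lambda V segments stood at 37.5, 8.38 and 2.37 CPM in Day0_Gata2 and 0 and 13.8 CPM in Day0_WT. Iglc2 and Iglc3 did not follow this sum: Iglc2 stood at 2.36, 2.65 and 2.59 CPM in Day0_Gata2 and 0.87 and 10.6 CPM in Day0_WT.

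The plasma cell list (8 genes) had 3 members lower and 1 higher in Day2_WT against Day0_WT, and 2 lower and 1 higher in Day2_Gata2 against Day0_Gata2. Of all genes, 17.9% and 4.82% were called lower in these 2 comparisons, and 29.9% and 9.3% in either direction. Jchain and Mzb1, which encodes an endoplasmic reticulum protein of antibody secretion, were lower in both genotypes, and Xbp1, a secretory stress factor not confined to plasma cells, was higher in both. Jchain stood at 0 and 0 CPM in Day2_Gata2 against 91.4, 88.8 and 93.9 in Day0_Gata2, and at 0.34, 0 and 1.66 in Day2_WT against 88.1 and 155 in Day0_WT. The list of pre-B receptor and recombination genes (8) had 7 lower in Day2_WT against Day0_WT and 2 lower in Day2_Gata2 against Day0_Gata2. Dntt, the polymerase that adds bases at V(D)J junctions, was among the lower ones in both, at 43.9 and 46.9 CPM in Day2_Gata2 against 334, 279 and 389 in Day0_Gata2, and at 25.1, 25.9 and 26.9 in Day2_WT against 244 and 244 in Day0_WT.

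Of the 10 B cell genes, 6 were lower in Day2_WT against Day0_WT, beside 17.9% of all genes. In Day2_Gata2 against Day0_Gata2 2 were lower, Cd72 and Pax5, beside 4.82%. Pax5, the factor that keeps B cell identity, stood at 3.01, 1.97 and 1.46 CPM in Day0_Gata2 and 10.4 and 1.51 in Day0_WT, against 78.3 to 127 CPM in the Week2 libraries on that fit's own scale. The defining B cell marker Ms4a1 stood at 0 to 1.06 CPM at Day0, at 0 to 0.28 CPM at Day2, and at 168 to 500 CPM at Week2. None of these list genes was called by edgeR in any comparison between libraries labelled Gata2 and WT, where it called 0.0% of all genes.

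Markers of other cells shifted as well between Day0 and Day2. Among 7 T cell genes 3 were lower in Day2_WT against Day0_WT and 4 in Day2_Gata2 against Day0_Gata2, and among 3 erythroid genes 3 and 1 were lower. Among 4 neutrophil genes 3 and 1 were higher, and among 6 LSK genes 2 were lower in each genotype. Of all genes, 17.9% in WT and 4.82% in libraries labelled Gata2 were called lower, and 29.9% and 9.3% in either direction. The summed T cell level was 37.6 to 47.1 CPM in Day0_Gata2, 34.3 and 43.4 in Day0_WT, 6.74 and 9.01 in Day2_Gata2, and 9.05 to 13.2 in Day2_WT, with the T cell receptor gene Trac at or below 0.46 CPM in all LSK libraries. The part of a changed cell mixture in the V segment levels was not tested.

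At Week2 the summed B cell level was 4059, 6715 and 4520 CPM in Week2_Gata2 and 6631, 3443 and 4906 in Week2_WT. The libraries with the highest V level in each group, Week2_Gata2 replicate 2 and Week2_WT replicate 1, were also highest in the B cell list, the pre-B list (1972 CPM and 1841 CPM) and the constant genes. The summed erythroid level ranged from 15.9 to 2117 CPM in Week2_Gata2 and from 20.1 to 6450 CPM in Week2_WT, and the neutrophil level from 12015 to 58779 CPM in Week2_Gata2 and from 11552 to 54755 CPM in Week2_WT. The cell make-up of the Week2 libraries thus varied within both groups, and its part in the V segment levels was not tested.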

How the data were processed

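RNA from 16 mouse bone marrow samples was sequenced, and the authors deposited 1 table of whole-number read counts per gene ID. The submitters' processing notes name Trimmomatic 0.38, STAR 2.5.2b and mm10. The counting program, its strand setting and its rule for reads that fit several genes are not stated there. The labels' protocols name both a stranded and an ultra-low-input library kit without saying which sample had which.

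Gene classes, coordinates and transcript sequences came from GENCODE M21. The deposited counts went into edgeR 4.0.16 (R 4.3.3) with TMM scaling, filterByExpr and the robust quasi-likelihood test. P-values were adjusted over all genes tested by Benjamini-Hochberg, and 0.05 was the threshold. The 6 Week2 libraries formed one model and the 10 LSK libraries another with 4 groups, so their CPM scales are separate. The procedure was tested on simulated counts. Sums and indices over segments were not tested. Alternatives were RLE scaling, no low count filter, DESeq2 1.42.0, leaving out each library, a replicate block, and other definitions of each sum and index. Since nothing says that replicates were separate animals, p-values measure only the spread between libraries, which may be technical. Replicate numbers did not pair libraries. Intervals are 95% Clopper-Pearson, a count of 0 allows up to 3 counts, and both cover counting error only.

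The members and gene lists were chosen with earlier results of these data known. Named segments were the 8 Ighv, 8 Igkv and all Iglv of largest mean Week2 share, the 3 largest of each LSK group, the largest of each library, called segments (the 10 of lowest p where more were called), the 5 of lowest p at Week2 and the ends of the loci. Other names were chosen after their values were seen.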

Additional observations from a re-analysis of the deposited data

How the results depend on the processing

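The counts of V segments called in the comparisons of libraries labelled Gata2 with WT stayed at 0 under RLE scaling, without a low count filter and with the replicate block. DESeq2 called 0 at Week2 and Day0 and 1 at Day2. Leaving out 1 library gave 0 to 1 at Week2 (1 without Week2_Gata2 replicate 3), 0 to 14 at Day0 (14 without Day0_WT replicate 2) and 0 at Day2. In Day2_WT against Day0_WT the count of 19 became 19 with RLE, 29 without a filter, 22 with DESeq2 and 5 to 43 when 1 library was left out. It was 43 without Day0_WT replicate 1, 29 and 32 without Day2_Gata2 replicate 1 or 2, 11 or 12 without a Day0_Gata2 library, and 5 without a Day2_WT library. In Day2_Gata2 against Day0_Gata2 the count of 7 became 7 with RLE, 4 without a filter, 24 with DESeq2 and 1 to 27 when 1 library was left out. It was 27 and 25 without Day0_WT replicate 1 or 2, 1 without either Day2_Gata2 library, and 4 without Day0_Gata2 replicate 2 or any Day2_WT library. The cause of these differences was not tested, except that the number of segments passing the filter also moved, between 53 and 119 over all LSK fits.

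The same replicate numbers did not deviate together (correlations of -0.75 to 0.60 at Week2 and of -0.08 to 0.05 in the LSK libraries). With the replicate block 15 of 64 segments were called in the time comparison of WT, beside 14.3% of all genes. In that of libraries labelled Gata2 5 of 64 were called, beside 3.89%, and in the others 0.

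Log2 ratios of the summed level moved by less than the spread between libraries under every alternative tried, but the sign changed for Week2 without Week2_Gata2 replicate 2 (-0.01) and for Day0 without Day0_WT replicate 2 (0.37), without the largest segment of each library (0.06) and with only segments sharing less than 50% of their 50-base stretches (0.06). For the effective numbers, the Week2 log2 ratios of -0.17 for Ighv and -0.24 for Igkv ranged from -0.28 to -0.03 and from -0.37 to -0.09 when 1 library was left out.

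With a minimum of 10 counts the mean number of segments seen became 52 in Day0_Gata2, 3 in Day2_Gata2, 3.67 in Day2_WT, 210 in Week2_Gata2 and 213 in Week2_WT. At the depth of the smallest library it was 100.2 in Day0_Gata2, 11.1 in Day2_WT, 209.8 in Week2_Gata2 and 212.2 in Week2_WT. The largest segment held on average 13.6% of V counts in Day0_Gata2, 36.5% in Day0_WT, 26.5% in Day2_Gata2, 37.3% in Day2_WT, 10.9% in Week2_Gata2 and 11.3% in Week2_WT. The 10 largest held 60.1% in Day0_Gata2, 84.6% in Day2_Gata2, 94.4% in Day2_WT, 32.7% in Week2_Gata2 and 29.7% in Week2_WT. For the named segments, 269 of the recomputed fold changes kept direction and side of the threshold, 140 were no longer called, 1 became called (Igkv3-9) and 2 changed sign: in Day2_WT against Day0_WT, leaving out single libraries gave log2 fold changes of -6.50 to 4.68 for Ighv6-3 and of -5.69 to 3.07 for Ighv1-74, lowest without Day0_WT replicate 1 and highest without replicate 2.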
